A study of Homo sapiens with 12 samples.

Results

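The comparison described here is the knockdown of STK17B in the established myeloma line KMS11 (human), with each of 2 short hairpin RNAs (sh1 and sh2) set against a control hairpin (shControl). Its members are 6 of the 12 libraries of the series, 2 per group, chosen by their sample labels, and 12731 of the 29607 listed genes, those that reached 1 TPM in 2 or more of the 12 libraries. RNA was selected on poly(A) and sequenced, and each value is in TPM, a share of all transcripts, so every library has an equal sum. The cells of all 3 groups were labelled as untreated; the genotype label was STK17B shRNA for sh1 and sh2 and WT for shControl. The label WT does not distinguish cells with the control hairpin from the second control of the series, the control vector of the overexpression arm (Vector, 2 libraries, WT, untreated), which is given beside the results. The labels give no promoter, selection or time after transduction, and do not say whether the replicates were grown apart, so p-values measure the spread between these libraries, which may be technical. The control columns of the table carry numbers and no group names: their assignment to shControl and Vector rests on the match of those numbers to the library numbers in the labels and is an inference.

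STK17B (DRAK2) belongs with the death-associated protein kinases, which phosphorylate serine and threonine. It is expressed mainly in lymphocytes, where it is known to dampen antigen receptor signalling. Multiple myeloma is a cancer of plasma cells, the antibody-secreting end stage of the B lineage, which depend on the transcription factor IRF4, a large endoplasmic reticulum (ER) and signals such as interleukin 6. A short hairpin RNA is processed by the cell's microRNA machinery into a guide that directs cleavage of a matching messenger RNA, so a control hairpin shares that machinery and a vector without a hairpin does not.

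The libraries were alike in breadth. Across the series between 16577 and 17354 genes were above 0 and between 11672 and 12353 reached 1 TPM, and replicates correlated at 0.991 to 0.993 within groups (Pearson's r over log2 values of genes, which are not independent replicates). Genes classed as short RNAs or ribosomal RNAs together held 0.542% and 0.545% of TPM in shControl. They held 0.876% to 0.997% in the 4 hairpin libraries and 0.77% and 0.873% in Vector. The part of this share in other results was tested only by rescaling without these genes and the histone genes. Markers of other cell types were low. Of 9 listed T and NK cell markers, CD3D, CD3G and KLRD1 were at 0 in all 6 libraries and only CD3E reached 1 TPM (summed level 3.74 to 3.85 TPM in shControl and 5.3 to 6.38 with the hairpins). Summed myeloid markers stood at 2.95 to 6.15 TPM and 2.25 to 3.56, erythroid markers at 0.728 to 1.41 and 0.422 to 1.1, and stromal and endothelial markers at 4.51 to 8.13 and 1.76 to 2.47, the last mainly PECAM1. PECAM1 fell by 1.12 against shControl and 1.21 against Vector. The shControl libraries differed: replicate 1 had more COL1A1 (2.17 against 0.217 TPM), COL1A2 (0.995 against 0), S100A9 (2.47 against 0.46) and LYZ (1.42 against 0.461). It had less ITGAM (0.572 against 0.902) and GNLY (0 against 0.451). Epithelial markers had the highest sum, 11.7 to 14.2 TPM in shControl, 9.99 to 11.8 with the hairpins and 13.9 to 15.7 in Vector, mainly from EPCAM, which fell (-0.26), and KRT18, which did not pass (-0.13). The call of EPCAM was lost without shControl replicate 1 (-0.29) and without shControl replicate 2 (-0.24). The part of these markers in the results was not tested. Depth is unknown because the deposited table holds no counts.

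STK17B transcript was lower with each hairpin. STK17B, a protein-coding gene (GRCh38 chromosome 2, 196133566 to 196176503, minus strand), stood at 27.1 and 27.4 TPM in shControl, 12.7 and 10.9 with sh1, 14.7 and 14.5 with sh2 and 28.2 and 31.5 in Vector. No hairpin library overlapped any of the 4 control libraries. On the log2(TPM + 1) scale used throughout, the mean of the hairpins differed from shControl by -1.0 (SE 0.073, adjusted p = 7.0e-06; n = 4 and 2; limma with Benjamini-Hochberg adjustment over 12731 genes). Changes of genes at low levels are understated on that scale. The smallest p that an exact two-sided permutation of 2 against 4 libraries can give is 0.0667, so all calls here come from the model fitted across genes, with an adjusted p below 0.05 as the call. STK17A, the closest relative of STK17B (GRCh38 chromosome 7, 43582758 to 43650713, plus strand), stood at 34.7 and 33.9 TPM in shControl, 50.5 and 51.2 with sh1, 51.1 and 47.6 with sh2 and 30.7 and 29.3 in Vector. It rose in all 4 hairpin libraries without overlap, by 0.53 (SE 0.040, adjusted p = 8.0e-06), and by 0.72 against Vector. The other tested members of the family, DAPK1 and DAPK3, did not pass against shControl (-0.14 and 0.15) but did against Vector (-0.48 and 0.26); DAPK1 passed against shControl after rescaling by the median of ratios (-0.16, adjusted p = 0.038) or quantile normalization (-0.19, 0.016), and DAPK3 without sh2 replicate 2 (0.20, 0.026). In cells measured in bulk, fewer cells of a type and less RNA per cell cannot be told apart.

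**Figure D1:**
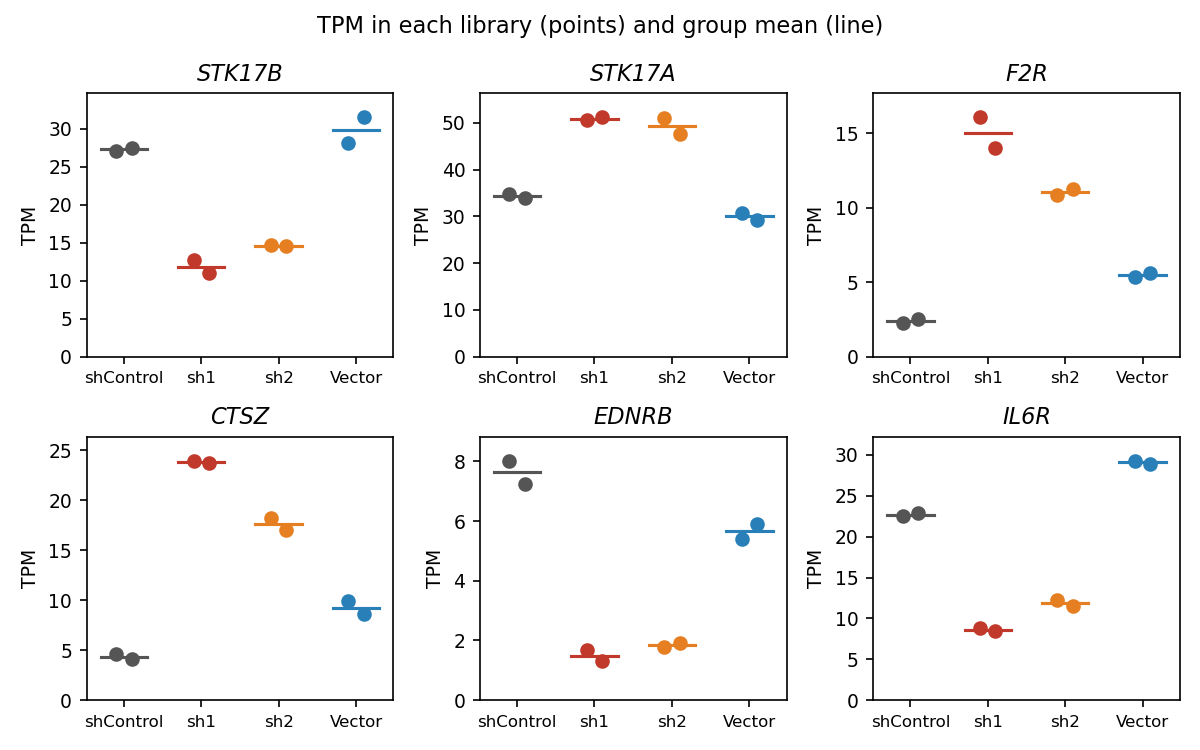
TPM of STK17B, its relative STK17A and 4 genes with large changes (y axes, TPM, from 0) in the 2 libraries of shControl, sh1, sh2 and Vector (x axes). Points are libraries and lines are group means; STK17B is at 27.1 and 27.4 TPM in shControl and between 10.9 and 14.7 TPM in the 4 hairpin libraries.

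Changes were many and mostly small. In the mean of the hairpins 3330 genes (26.2%) were higher and 2570 (20.2%) lower than in shControl, with a median log2 change of 0.33 among the higher and -0.28 among the lower; only 107 and 18 reached an estimated 2-fold. Against the same shControl libraries, sh1 alone had 3015 genes higher (23.7%) and 2714 lower (21.3%), and sh2 alone had 2806 higher (22%) and fewer lower, 1708 (13.4%). The balance of calls depended on the scaling. Higher genes made up 56.4% of calls in the mean of the hairpins and 62.2% with sh2, but 50.9% and 50.4% after rescaling TPM by the median of ratios. After quantile normalization lower calls were the more numerous, at 3159 against 2879 higher ones for both hairpins averaged (47.7% higher) and 2512 against 2212 with sh2 (46.8%). Against Vector the mean of the hairpins had 2369 genes higher (18.6%) and 3748 lower (29.4%), and Vector itself differed from shControl in 2723 genes higher (21.4%) and 1001 lower (7.86%). Calls against both controls, which use the same hairpin libraries, numbered 1651 higher (13%) and 1923 lower (15.1%). In 2131 genes (16.7%) the 4 hairpin libraries all stood above the 4 control libraries, and in 2383 (18.7%) below. These shares are the background for every count below, together with a median log2 change over all tested genes of 0.029 against shControl and -0.052 against Vector.

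Falls were few among long noncoding genes and many among abundant genes. Of 497 tested long noncoding genes 105 (21.1%) rose and 25 (5.03%) fell, against 27.3% and 22.3% of 11169 protein-coding genes. Among 695 genes with a mean over 200 TPM, 163 (23.5%) rose and 286 (41.2%) fell, while of 3635 genes between 2 and 10 TPM 24.2% rose and 15.3% fell. Of 1881 genes under 2 TPM 14.1% rose and 6.59% fell, and the part of expression level in the counts of long noncoding genes was not tested. Against Vector the median of the abundant genes was 0.011 and that of the genes between 2 and 10 TPM was -0.11. The median of the long noncoding genes was 0.139 against shControl and -0.0996 against Vector. The abundant genes that fell include the ribosomal proteins RPS25 (-0.54) and RPL7A (-0.25) and the chromatin protein PTMA (-0.38).

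Surface receptors were among the protein-coding genes that rose most with both hairpins and stood above every control library. F2R, which encodes the thrombin receptor PAR1 (GRCh38 chromosome 5, 76716043 to 76735781, plus strand), stood at 2.29 and 2.5 TPM in shControl, 16.1 and 14.01 with sh1, 10.9 and 11.3 with sh2 and 5.35 and 5.62 in Vector. Vector lay between shControl and the hairpins, and F2R rose by 2.04 against shControl (SE 0.065, adjusted p = 1.2e-07) and by 1.1 against Vector. CD86, the costimulatory ligand of CD28 and CTLA4, stood at 5.01 and 5.14 TPM in shControl, 19.5 and 19.4 with sh1, 16.1 and 16.4 with sh2 and 4.24 and 5.68 in Vector. The 2 controls were alike for CD86, which rose by 1.63 (SE 0.099, adjusted p = 2.3e-06; 1.67 against Vector). CHRNA1, the alpha subunit of the muscle acetylcholine receptor, was at 1.77 and 1.64 TPM in shControl, 10.2 and 9.43 with sh1, 7.56 and 6.26 with sh2 and 1.31 and 1.39 in Vector. All hairpin libraries of CHRNA1 were above all controls (log2 change 1.77, SE 0.12, adjusted p = 4.7e-06).

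Further receptors and secreted proteins rose from low levels. GPR171, a G protein-coupled receptor of lymphocytes, stood at 0.417 and 0.424 TPM in shControl, 3.04 and 3.1 with sh1, 2.42 and 3.53 with sh2 and 0.463 and 0.395 in Vector. IL2RB, the beta chain shared by the interleukin 2 and 15 receptors, stood at 0.808 and 0.82 TPM in shControl, 5.23 and 4.67 with sh1, 3.43 and 3.64 with sh2 and 1.19 and 1.14 in Vector. Every hairpin library of both genes was above every control library (log2 changes 1.49 and 1.52, adjusted p = 1.5e-05 and 9.3e-07). With a pseudocount of 0.1 in place of 1 the change of GPR171 was 2.57. The gelatinase MMP9, which cuts denatured collagen, was at 6.31 and 7.55 TPM in shControl, 19.6 and 21.9 with sh1, 19.6 and 18.02 with sh2 and 5.8 and 5.0 in Vector. MMP9 rose by 1.39 (SE 0.11, adjusted p = 9.2e-06) and did not overlap either control. A limit of a mean of at least 5 TPM over the 4 hairpin libraries was not reached by GPR171 and IL2RB. Among protein-coding genes within it, the 14 that rose most beyond all controls included F2R, CD86 and CHRNA1. They also included the actin regulator WIPF3 (1.81), the methyltransferase-like METTL7A (1.65), LRRC56 (1.58), the insulin-like growth factor carrier IGFBP4 (1.56), LRRN1 (1.47), CTSZ, IFI44 and histone genes. Of these CTSZ, IFI44 and the histone gene HIST1H4H are described below.

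**Figure D2:**
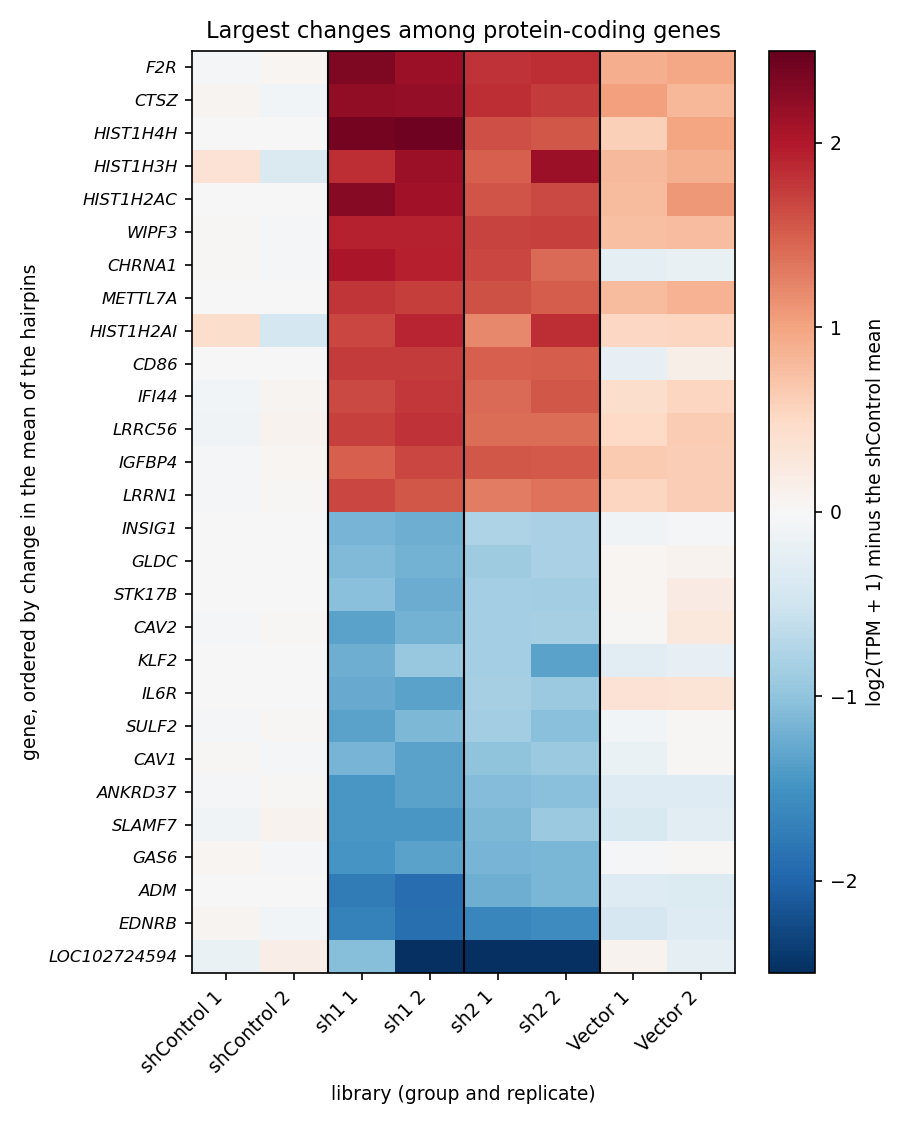
Log2(TPM + 1) minus the shControl mean (colour, capped at the ends of the scale) in each shControl, sh1, sh2 and Vector library (columns) for the 14 highest and 14 lowest protein-coding genes (rows) with at least 5 TPM on the higher side that were called with both hairpins and lay on the same side of all 4 control libraries. For F2R, CTSZ and IGFBP4 Vector is above shControl and below the hairpins, whereas for CHRNA1, CD86, GAS6 and CAV1 both controls are alike.

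Ligands, receptors and membrane organisers were among the genes that fell most. EDNRB, an endothelin receptor (GRCh38 chromosome 13, 77895481 to 77975529, minus strand), stood at 8.01 and 7.24 TPM in shControl, 1.67 and 1.32 with sh1, 1.77 and 1.92 with sh2 and 5.41 and 5.9 in Vector. It fell by 1.7 (SE 0.094, adjusted p = 1.6e-06), with no overlap. GAS6, the ligand of the TAM receptor kinases, stood at 21.1 and 19.9 TPM in shControl, 6.69 and 7.53 with sh1, 8.59 and 8.78 with sh2 and 20.1 and 20.8 in Vector. The controls were alike for GAS6, which fell by 1.28 (SE 0.053, adjusted p = 3.2e-07). IL6R, the receptor of the main growth cytokine of myeloma cells (GRCh38 chromosome 1, 154405193 to 154469450, plus strand), was at 22.6 and 22.9 TPM in shControl, 8.84 and 8.41 with sh1, 12.3 and 11.5 with sh2 and 29.3 and 28.9 in Vector. IL6R fell by 1.09 against shControl (SE 0.043, adjusted p = 2.7e-07) and its log2 change against Vector was -1.43.

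Ligands of receptor tyrosine kinases were mostly lower. Of 17 tested ligands 9 fell and 2 rose (median -0.25 against shControl, -0.28 against Vector), whereas of 13 receptors 3 fell and 3 rose (median -0.15); the difference between these counts was not tested. HGF, the ligand of MET, stood at 23.5 and 25.8 TPM in shControl, 12.1 and 9.48 with sh1, 14.4 and 13.9 with sh2 and 26.5 and 26.8 in Vector. IGF1, a growth factor for plasma cells, stood at 5.62 and 6.26 TPM in shControl, 3.0 and 1.46 with sh1, 3.63 and 3.47 with sh2 and 7.53 and 6.75 in Vector. Both were lower in every hairpin library than in every control (HGF -0.94, IGF1 -0.88), as were HBEGF (-0.70) and VEGFA (-0.61). Among receptors FGFR3 fell by 0.38 and IGF1R rose by 0.33. Cytokine receptors were divided: 8 of 18 rose and 6 fell, with IL27RA (0.78) and IL4R (0.69) higher and, beside IL6R, CRLF2 (-0.80) and CSF2RB (-0.72) lower. All 3 tested members of the caveola list fell, namely CAV1 (-1.1) and CAV2 (-1.05), the coat proteins of these membrane pits, and PACSIN2 (-0.18), which bends their necks and did not pass without shControl replicate 1 (-0.15, adjusted p = 0.058). Genes of heparan sulfate proteoglycans, which hold growth factors at the surface, had no common direction: 10 of 29 rose and 7 fell (median -0.016; 5 and 12 against Vector, and 6 rose without shControl replicate 1). Of 5 core proteins 2 rose and 2 fell, of 17 synthesis genes 3 and 4, and of 7 genes of their removal 5 and 1. Among them the core protein SDC1 (-0.98) and the extracellular sulfatase SULF2 (-1.09) fell and the lysosomal enzyme HGSNAT (0.89) rose.

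Of 21 tested G protein-coupled receptors 12 rose and 5 fell (median 0.21; 10 and 2 called the same way against both controls). Besides F2R and GPR171 the members that rose include the lymphocyte nucleotide receptor P2RY10 (0.73). EDNRB was among those that fell.

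Interferon-induced genes rose. Of their promoters 3 are printed as examples, because most members hold the sequence described next. The members were chosen as interferon-induced genes, so how often they hold it describes the list and not the knockdown. Each line gives the RefSeq promoter (GRCh38.p14, 250 bases before to 50 after the start, 5′ to 3′ on the gene's strand) with matches to the core of the interferon-stimulated response element, GAAA followed by any 2 bases and GAAA on either strand, in capitals. IFI44 lies at chr1:78649539-78649838, plus strand, GBP4 at chr1:89198893-89199192, minus strand and MX1 at chr21:41420308-41420607, plus strand.
IFI44: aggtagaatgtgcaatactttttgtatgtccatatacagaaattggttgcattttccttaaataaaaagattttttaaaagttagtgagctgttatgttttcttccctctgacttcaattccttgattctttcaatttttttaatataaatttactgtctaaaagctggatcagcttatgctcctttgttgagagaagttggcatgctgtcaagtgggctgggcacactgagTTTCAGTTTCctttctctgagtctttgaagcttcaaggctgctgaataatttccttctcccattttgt
GBP4: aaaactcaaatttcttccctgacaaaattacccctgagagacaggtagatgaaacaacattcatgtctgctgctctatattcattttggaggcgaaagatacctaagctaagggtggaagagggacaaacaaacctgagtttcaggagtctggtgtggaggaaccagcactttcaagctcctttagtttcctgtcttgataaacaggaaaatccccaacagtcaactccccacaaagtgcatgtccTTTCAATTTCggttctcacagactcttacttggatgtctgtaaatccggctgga
MX1: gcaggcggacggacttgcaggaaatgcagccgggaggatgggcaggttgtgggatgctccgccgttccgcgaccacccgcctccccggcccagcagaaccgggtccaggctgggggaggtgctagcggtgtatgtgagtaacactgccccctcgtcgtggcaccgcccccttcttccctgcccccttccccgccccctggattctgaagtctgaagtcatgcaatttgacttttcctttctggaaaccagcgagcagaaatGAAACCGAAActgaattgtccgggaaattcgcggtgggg
The core was in 24 of the 31 interferon effectors with a RefSeq promoter (77.4%), against 279 of 9640 (2.89%) promoters of tested genes and 996 of 27305 (3.65%) in all. It was present in 15 of 21 effectors that rose, 8 of 8 that did not pass and 1 of 2 that fell. Among the interferon receptors and signalling genes described next it was in 1 of 14 promoters (7.14%).

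Of 35 tested interferon effectors 23 rose and 2 fell against shControl (median 0.47). Against Vector 12 rose and 7 fell (median 0.12), and 11 and 2 were called the same way against both controls. IFI44 stood at 1.51 and 1.77 TPM in shControl, 7.3 and 7.99 with sh1, 5.99 and 6.73 with sh2 and 2.59 and 2.83 in Vector. MX1, a GTPase that blocks viral replication, stood at 12.4 and 12.7 TPM in shControl, 29.03 and 27.04 with sh1, 23.97 and 23.98 with sh2 and 14.3 and 17.9 in Vector. Both were above all 4 control libraries (log2 changes 1.6 and 0.99, SE 0.082 and 0.089, adjusted p = 9.5e-07 and 2.3e-05). GBP4, a guanylate-binding protein, stood at 0.0605 and 0.0981 TPM in shControl, 1.57 and 1.46 with sh1, 1.19 and 1.05 with sh2 and 0.262 and 0.411 in Vector, without overlap (1.1, and 2.98 with a pseudocount of 0.1). ISG15, a ubiquitin-like modifier, rose by 0.85 against shControl but was at 0.20 against Vector, where it did not pass; without shControl replicate 2 it did not pass against shControl either (0.76, adjusted p = 0.055). ISG20 (-0.39) and SAMD9L (-0.34) were the members that fell, SAMD9L not without shControl replicate 2 (-0.31, adjusted p = 0.068).

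Most of the signalling genes upstream of these effectors rose against shControl. Of 19 receptors, kinases, factors and inhibitors 12 rose and 1 fell (median 0.30; 0.084 against Vector). Against Vector 9 rose and 5 fell, and 9 and 1 were called the same way against both controls. Of the 6 transcription factors 4 rose and 1 fell against shControl, and 2 rose and 3 fell against Vector. IRF9, the DNA-binding subunit of the complex that binds the response element, stood at 9.03 and 8.67 TPM in shControl, 26.8 and 29.3 with sh1, 22.9 and 23.1 with sh2 and 10.97 and 12.5 in Vector. IRF9 rose by 1.42 (SE 0.063, adjusted p = 4.0e-07), without overlap with either control. IRF7, which amplifies interferon production, rose by 1.08, the receptor kinases JAK1 and TYK2 by 0.55 and 0.46, and the feedback inhibitor SOCS1 by 0.44. None of 9 listed interferon ligands was tested: IFNB1, IFNA1 and IFNG were listed at 0 in all 6 libraries, and IFNL1 reached at most 0.731 TPM there.

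The calls of RNA sensors differed with the control. Of 10 tested sensors of foreign RNA 7 rose against shControl and 0 fell (median 0.35), but none was called in the same direction against Vector (median -0.024). DDX58, which encodes RIG-I, was at 0.65 and 0.20 against the 2 controls (the first 1.01 with a pseudocount of 0.1) and OAS1 at 0.76 and 0.18. By contrast 5 of 9 adaptors and kinases downstream rose, all 5 of them against both controls, led by TBKBP1 (0.92). Of 15 genes of the RNA interference machinery, which processes the hairpins, 4 rose and 3 fell (median 0.053), with AGO4 up by 0.58 and the hairpin-binding TARBP2 by 0.42.

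MHC class II genes rose with the hairpins. Of 13 MHC class II genes 11 rose and 1 fell (median 0.42), and the same counts, 11 and 1, were called against both controls (median 0.34 against Vector). HLA-DOA, a regulator of class II peptide loading, stood at 5.51 and 6.3 TPM in shControl, 12.6 and 12.9 with sh1, 12.8 and 11.9 with sh2 and 6.32 and 7.1 in Vector. It did not overlap the controls and rose by 0.97 (SE 0.074, adjusted p = 8.8e-06). The classical chains HLA-DQA1 (0.77), HLA-DPB1 (0.47) and HLA-DRA (0.25) rose, and IFI30, the lysosomal thiol reductase, fell by 0.41. HLA genes are highly similar to one another, so their separate TPM values are uncertain. Of 21 MHC class I genes 13 rose and 4 fell (median 0.16; 0.039 against Vector). TAPBP, which bridges the peptide transporter and class I molecules, rose by 0.89 and by 0.57 against Vector, while the light chain B2M rose by 0.40 against shControl and was at -0.033 against Vector. NLRC5, the transactivator of class I genes, fell by 0.37.

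Most lysosomal genes rose against shControl and fewer did against Vector. Of 88 tested members 59 rose and 6 fell against shControl (median 0.30), and 34 rose and 18 fell against Vector (median 0.077); 34 and 5 were called the same way against both. Against shControl the hydrolases had 26 of 32 higher, the membrane proteins 15 of 20, the subunits of the proton pump V-ATPase 9 of 16 and the regulators 9 of 20. CTSZ, which encodes the carboxypeptidase cathepsin Z (GRCh38 chromosome 20, 58995185 to 59007247, minus strand), stood at 4.59 and 4.14 TPM in shControl, 23.9 and 23.7 with sh1, 18.3 and 16.98 with sh2 and 9.87 and 8.58 in Vector. Vector was between shControl and the hairpins in that order, and the log2 changes were 2.0 against shControl (SE 0.085, adjusted p = 3.3e-07) and 1.07 against Vector. SMPD1, the acid sphingomyelinase, stood at 8.4 and 8.06 TPM in shControl, 19.5 and 19.3 with sh1, 16.2 and 15.4 with sh2 and 9.86 and 10.1 in Vector, without overlap (1.0). LAMP1, an abundant membrane glycoprotein of lysosomes, rose by 0.51 against shControl and 0.58 against Vector, and the V-ATPase subunit ATP6V0D1 by 0.50 and 0.51. PSAP, the precursor of lipid-transfer saposins, rose by 0.58 against shControl but was at -0.040 against Vector. GLA (-0.40) and GNPTAB (-0.40), which tags hydrolases for lysosomes, fell.

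CTSA, the protective protein cathepsin A, is printed because its promoter holds 2 stretches with the core of the lysosomal CLEAR element, TCACGTG on either strand. The window is chr20:45891085-45891384, plus strand, with the matches in capitals.
CTSA: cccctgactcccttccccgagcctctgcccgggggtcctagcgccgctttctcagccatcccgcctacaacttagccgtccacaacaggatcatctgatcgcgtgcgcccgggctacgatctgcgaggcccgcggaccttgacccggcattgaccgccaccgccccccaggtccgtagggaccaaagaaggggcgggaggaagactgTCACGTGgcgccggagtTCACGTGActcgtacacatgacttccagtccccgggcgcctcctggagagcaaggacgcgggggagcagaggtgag
CTSA stood at 118 and 124 TPM in shControl, 261 and 236 with sh1, 216 and 219.6 with sh2 and 156 and 155 in Vector, with no overlap between hairpins and controls (0.93, SE 0.042, adjusted p = 4.4e-07). The core was in 17 of 66 lysosomal promoters (25.8%), against 592 of 9640 (6.14%) promoters of tested genes and 1043 of 27305 (3.82%) in all. Among lysosomal genes it was in 11 of 43 that rose and 5 of 18 that did not pass. Of 36 autophagy genes 20 rose and 4 fell (median 0.19; 0.074 against Vector). The cargo receptor SQSTM1 rose by 0.76 and 0.60 against the 2 controls, and NBR1 by 0.62 and 0.16.

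Plasma cell genes fell. Falls were called for 15 of 22 tested members and rises for none (median -0.27), and 14 fell against both controls (median -0.42 against Vector). By role 4 of 6 transcription factors, 4 of 6 surface proteins and 7 of 10 secretory proteins fell. SLAMF7, a surface receptor of plasma cells and an antibody target in myeloma, stood at 18.9 and 21.7 TPM in shControl, 6.76 and 6.79 with sh1, 8.7 and 10.2 with sh2 and 15.2 and 16.5 in Vector. IRF4, the factor on which myeloma cells depend, stood at 111 and 115 TPM in shControl, 65.3 and 61.5 with sh1, 76.9 and 77.8 with sh2 and 111 and 112 in Vector. Each was below every control library (log2 changes -1.24 and -0.68, SE 0.073 and 0.032, adjusted p = 2.0e-06 and 5.2e-07), as was TNFRSF17, which encodes the drug target BCMA (-0.76). PRDM1, a master regulator of plasma cell differentiation, stood at 30.2 and 32.6 TPM in shControl, 19.9 and 16.9 with sh1, 20.2 and 22.2 with sh2 and 35 and 37.6 in Vector. Every hairpin library was below every control (PRDM1 -0.64, SE 0.074, adjusted p = 1.0e-04). XBP1, which drives secretory expansion, stood at 1115 and 1121 TPM in shControl, 845 and 824 with sh1, 967 and 968 with sh2 and 1264 and 1280.0 in Vector. The fall of XBP1 was 0.31 against shControl, with sh1 below sh2; after quantile normalization it was 0.18. Of 13 other B cell transcription factors 4 rose and 4 fell: SPIB rose by 0.62, and POU2F2 (-0.69), FOXO1 (-0.52) and IRF8 (-0.49) fell. Only IGLL5 among 16 listed immunoglobulin genes was tested (-0.60 against shControl, 0.027 against Vector), so antibody transcripts were not assessed.

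Secretory machinery fell with them. Of 53 genes of ER folding and the unfolded protein response 30 fell and 8 rose (median -0.15; -0.25 against Vector), including 18 of 25 chaperones and folding enzymes. TXNDC5, an oxidoreductase of antibody-secreting cells, stood at 1287 and 1315 TPM in shControl, 716 and 697 with sh1, 883 and 886 with sh2 and 1571 and 1542 in Vector. PDIA5, another protein disulfide isomerase, stood at 47.5 and 47.2 TPM in shControl, 25.8 and 23.7 with sh1, 32.4 and 27.7 with sh2 and 53.1 and 49.5 in Vector. Both were lower in all hairpin libraries than in all controls (-0.72 and -0.78). Of 11 sensors and factors 6 fell and 3 rose, with CREB3L2 (-0.73) and the sensor ERN1 (-0.40) lower and CREB3L4 (0.68) higher. Of 59 genes of ER translocation and vesicle traffic 28 fell and 3 rose (median -0.095), led by the COPII cargo adaptor SEC24D (-0.65) and the retrieval receptor KDELR2 (-0.60).

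Genes of growth and DNA synthesis fell in large numbers and by small amounts. Of 41 MYC and ribosome biogenesis genes 34 fell and 1 rose (median -0.21), but 16 fell against both controls (median -0.081 against Vector). LYAR (-0.48), the helicase DDX21 (-0.45) and POLR1A, the catalytic subunit of RNA polymerase I (-0.40), fell, and UBTF, which activates ribosomal DNA, rose (0.16). Of 44 DNA replication genes 31 fell and 1 rose (median -0.20), 21 of them lower against both controls; MCM10 (-0.50) and CDC6 (-0.50), which act at replication origins, were lowest. DNA repair had 20 of 44 lower (median -0.15) and mitosis 17 of 36 (median -0.099); without shControl replicate 2 these falls numbered 11 and 11. MKI67, the proliferation marker, stood at 70.3 and 76.5 TPM in shControl, 47.1 and 41.6 with sh1, 44.7 and 48.8 with sh2 and 78.5 and 83.3 in Vector. All hairpin libraries of MKI67 were below the controls (-0.68, SE 0.059, adjusted p = 2.0e-05).

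Nucleotide and one-carbon synthesis had 27 of 41 members lower and 2 higher (median -0.22; -0.12 against Vector). GLDC, the glycine decarboxylase that feeds one-carbon units, stood at 9.14 and 9.28 TPM in shControl, 3.74 and 3.47 with sh1, 4.52 and 4.84 with sh2 and 9.5 and 9.8 in Vector, with no overlap (-1.0, SE 0.055, adjusted p = 1.4e-06). IMPDH2, the rate-limiting enzyme of guanine nucleotide synthesis, fell by 0.63 and the purine enzyme PPAT by 0.44. Of 46 translation factors 18 fell, all 18 of them against both controls, and 8 rose; EIF5B (-0.64) and EIF1AX (-0.48) were lowest. Of 20 cyclins and their kinases 12 fell and 3 rose: CCNE1 fell by 0.89, and CCND2 by 0.42. Proteasome calls differed with the control: 14 of 35 subunits fell and 5 rose against shControl (median -0.066), but 19 rose and 3 fell against Vector (median 0.10); without shControl replicate 1 or without sh2 replicate 1, 9 fell against shControl. The catalytic subunit PSMB5, the target of bortezomib, rose against both (0.32 and 0.55).

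**Figure D3:**
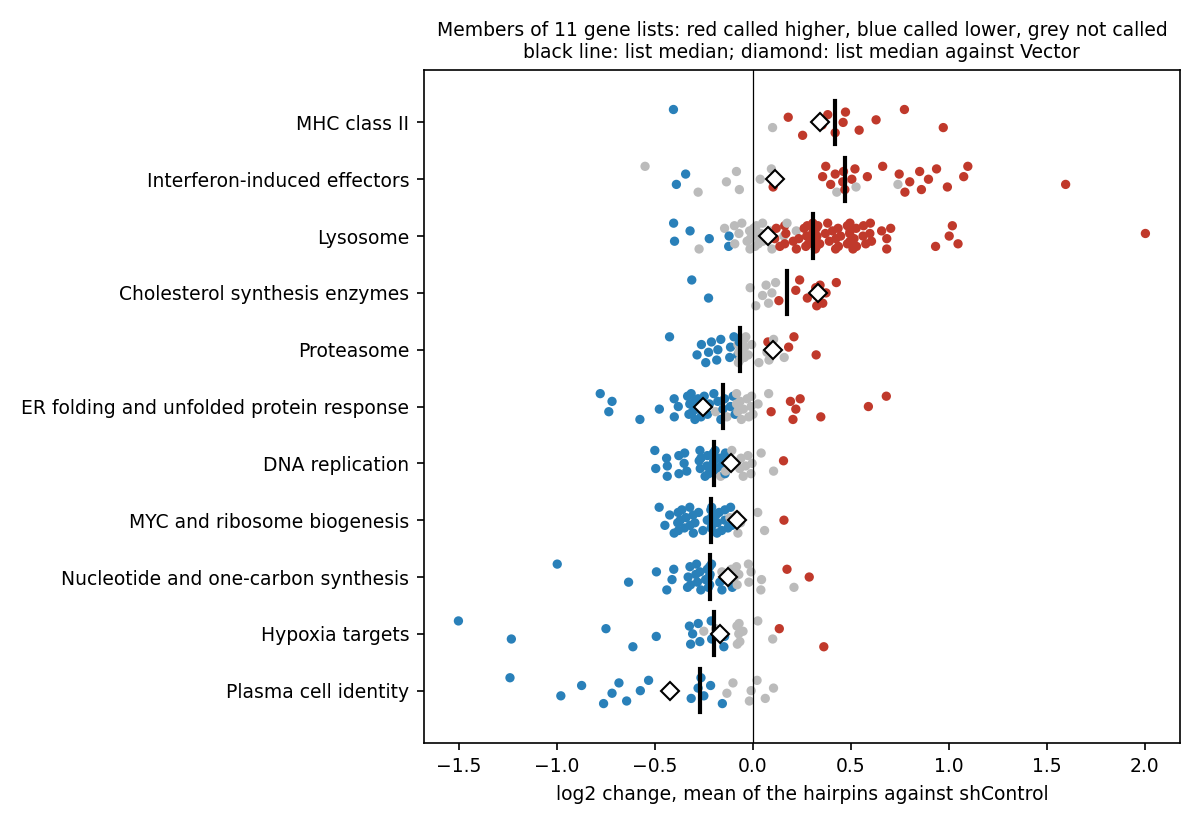
Log2 change in the mean of the hairpins against shControl (x axis) of each tested member (points) of 11 gene lists (y axis), red where called higher, blue where called lower and grey where not called. Black lines are list medians and diamonds the list medians against Vector: the diamond lies near the line for MHC class II (0.34 and 0.42) and on the other side of 0 for the proteasome (0.10 and -0.066).

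Hypoxia and glycolysis genes fell, and the promoters of ANKRD37, a hypoxia target, and LDHA, a glycolysis gene, are printed as examples with matches to the hypoxia response element, which most hypoxia targets held and most glycolysis genes did not. The windows are chr4:185396591-185396890, plus strand and chr11:18394313-18394612, plus strand, with matches to the core of the hypoxia response element, ACGTG on either strand, in capitals; the core is also contained in the CLEAR core.
ANKRD37: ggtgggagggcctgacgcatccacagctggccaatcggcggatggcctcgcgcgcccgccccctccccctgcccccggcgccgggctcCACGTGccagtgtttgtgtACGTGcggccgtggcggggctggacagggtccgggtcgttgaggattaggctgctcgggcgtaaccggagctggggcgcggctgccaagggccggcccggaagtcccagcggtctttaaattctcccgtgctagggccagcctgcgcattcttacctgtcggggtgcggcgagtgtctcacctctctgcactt
LDHA: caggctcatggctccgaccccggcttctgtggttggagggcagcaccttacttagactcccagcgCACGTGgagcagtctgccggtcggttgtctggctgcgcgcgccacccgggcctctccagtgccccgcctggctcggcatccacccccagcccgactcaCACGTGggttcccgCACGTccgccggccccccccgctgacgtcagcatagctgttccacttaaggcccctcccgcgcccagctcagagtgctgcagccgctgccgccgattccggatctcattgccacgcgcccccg
The core was in 15 of 21 hypoxia targets with a promoter (71.4%), namely 11 of 12 that fell, 4 of 7 that did not pass and 0 of 2 that rose. It was in 10 of 24 glycolysis genes (41.7%), namely 7 of 16 that fell, 3 of 6 that did not pass and 0 of 2 that rose. The background was 2681 of 9640 (27.8%) promoters of tested genes and 5900 of 27305 (21.6%) in all. Of 26 tested hypoxia targets 14 fell and 2 rose (median -0.20; 8 lower against both controls; 9 fell without shControl replicate 2). ANKRD37, a target of HIF1, stood at 31.6 and 32.6 TPM in shControl, 11.2 and 12.03 with sh1, 14.5 and 15.1 with sh2 and 25.3 and 25.6 in Vector. ADM, the vasodilator adrenomedullin, stood at 5.33 and 5.42 TPM in shControl, 0.904 and 0.701 with sh1, 1.74 and 1.89 with sh2 and 4.12 and 4.03 in Vector. Each was below all controls (ANKRD37 -1.23, ADM -1.5), and the RefSeq window of ADM held no match. Of 27 glycolysis genes 17 fell and 3 rose against shControl (median -0.20), whereas 10 fell and 7 rose against Vector (median -0.011). LDHA fell by 0.48 and 0.16 against the 2 controls and hexokinase HK2 by 0.64 and 0.33, and the glucose transporter SLC2A3 rose by 1.08 and 0.89.

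Enzymes of cholesterol synthesis rose while INSIG1 fell. Of 20 enzymes 11 rose and 2 fell (median 0.18), and 11 rose against both controls (median 0.33 against Vector). MSMO1 and SQLE rose by 0.43 and 0.34. The core of the sterol element SRE (TCACNCCAC, N any base, either strand) was in 0 of 15 enzyme promoters. The background was 108 of 9640 (1.12%) promoters of tested genes. INSIG1, which retains the sterol sensor in the ER and is itself a target of that pathway, stood at 348 and 342 TPM in shControl, 154 and 148 with sh1, 202 and 197 with sh2 and 326 and 338 in Vector. INSIG1 fell by 0.99 (SE 0.032, adjusted p = 1.2e-07) without overlap, and SREBF2, which encodes the pathway's transcription factor, rose by 0.19. Fatty acid synthesis was divided: 6 of 19 genes rose and 7 fell against shControl (median -0.11; 4 and 10 against Vector), and 2 rose without shControl replicate 2. The elongase ELOVL6 rose (0.41, but -0.025 against Vector) and the synthase FASN (-0.38) and the desaturase FADS1 (-0.45) fell. Of 23 sphingolipid genes 12 rose and 2 fell, the last including the ceramide synthase CERS6 (-0.71).

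Signalling regulators moved in both directions. Of 25 NF-kB genes 15 rose and 4 fell (median 0.17; 11 and 3 against both controls). NFKBIA, the inhibitor that holds NF-kB in the cytoplasm and is induced by it, stood at 25.9 and 25.9 TPM in shControl, 41.7 and 41.8 with sh1, 37.4 and 40.1 with sh2 and 21.3 and 22.1 in Vector. It rose by 0.62 (SE 0.038, adjusted p = 2.5e-06), and the related NFKBIZ by 0.90. The insulin receptor substrate IRS1 fell by 0.75 and the transcription factor KLF2 by 1.09. Of 23 feedback genes of the ERK cascade 11 fell and 3 rose (median -0.19; with the cascade itself 14 fell, and 8 without shControl replicate 1), among them DUSP7 (-0.46) and DUSP4 (-0.37).

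Death genes rose more often than they fell. Of 26 tested members 11 rose and 3 fell (median 0.097; 8 and 2 against both controls), and of 8 survival genes 1 rose and 2 fell; the 5 falls of both kinds became 2 without either of the shControl libraries in turn and 3 without either of the sh2 libraries in turn. BCL2L11, which encodes the pro-death protein BIM, stood at 15.5 and 16.7 TPM in shControl, 37.5 and 33.4 with sh1, 33.5 and 33.7 with sh2 and 22.2 and 26.6 in Vector. BIM transcript was higher in every hairpin library than in every control (BCL2L11 1.05 against shControl, 0.49 against Vector). BMF (0.92), the inflammatory caspase CASP1 (1.13), CASP8 (0.62) and RIPK1 (0.62) rose. The survival gene BCL2L1, which encodes BCL-XL, fell by 0.49.

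Ferroptosis, an iron-dependent death by lipid peroxidation that the study's title names, showed no common direction in its genes. Of 25 defence genes 6 rose and 6 fell (median -0.0056), of 13 promoting genes 4 rose and 4 fell (median -0.0053), and of 22 iron genes 5 rose and 7 fell (median -0.0034). HMOX1, which frees iron from heme, stood at 22.1 and 23.6 TPM in shControl, 51.7 and 43.7 with sh1, 40.9 and 42.8 with sh2 and 27.1 and 28.2 in Vector. HMOX1 rose against both controls (0.93 and 0.67), while KEAP1, the sensor that restrains NRF2, rose by 0.37 and SLC3A2, the partner of the cystine transporter, fell by 0.35. The iron exporter SLC40A1 rose by 0.80, and the transferrin receptor TFRC and the lipid enzyme ACSL4, both of which promote ferroptosis, fell by 0.39 and 0.45. GPX4, the lipid peroxidase that prevents ferroptosis, stood at 303 and 302 TPM in shControl, 368 and 379.7 with sh1, 352 and 349 with sh2 and 336 and 312 in Vector. All hairpin libraries of GPX4 were above the controls, by 0.26 against shControl (adjusted p = 1.9e-04). SAT1, the polyamine acetyltransferase, rose by 0.29 against shControl but was at -1.01 against Vector, and did not pass without shControl replicate 1 (0.26, adjusted p = 0.08). SLC7A11, the cystine transporter itself, was at 0.327 to 0.831 TPM in the 6 libraries and was not tested. The nuclear genes of the respiratory chain had 8 of 66 higher and 12 lower against shControl (median 0.005), and 24 higher and 10 lower against Vector (median 0.069). Rises numbered 22 against the mean of both controls and 19 after quantile normalization.

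Genes of the actin cytoskeleton were among those called. The actin-capping protein CAPG rose by 1.11, and MYH10, a heavy chain of nonmuscle myosin, fell by 0.68. STK17B and STK17A belong to a kinase family known to phosphorylate myosin light chains, and of these MYL9 rose by 0.96 against shControl but did not pass against Vector (0.28) or without shControl replicate 2 (0.71, adjusted p = 0.1).

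Some of the largest changes lay in RN7SK and histone RNAs, which poly(A) selection should deplete, and in mitochondrial ribosomal RNAs. RN7SK, the scaffold RNA of the complex that sequesters P-TEFb, stood at 12.4 and 14.2 TPM in shControl, 108 and 129.7 with sh1, 87.4 and 72.5 with sh2 and 28.4 and 31.5 in Vector. The groups did not overlap (2.78, SE 0.093, adjusted p = 1.4e-07; 1.67 against Vector). RNR1, a mitochondrial ribosomal RNA, stood at 246 and 278 TPM in shControl, 836 and 797 with sh1, 575 and 712 with sh2 and 405 and 463 in Vector. RNR1 rose by 1.46 and by 0.74 against Vector, while the other one, RNR2, rose by 1.18 against shControl and did not pass against Vector (0.20). Of 21 replication-dependent histone genes, whose messages end in a stem-loop in place of a poly(A) tail, 10 rose and none fell (median 0.49; 0.16 against Vector). HIST1H4H stood at 1.64 and 1.69 TPM in shControl, 13.1 and 13.3 with sh1, 7.09 and 6.81 with sh2 and 3.04 and 4.25 in Vector. It was above all controls and higher with sh1 than with sh2, and the stem-loop binding protein SLBP fell by 0.66. Histone genes are near-identical copies, so their separate values are uncertain, and the share of short and ribosomal RNAs moved with the same groups as given above. LOC102724594, a near-copy of the splicing factor gene U2AF1, was at 11.8 and 15.1 TPM in shControl, 5.83 and 1.13 with sh1, 0 and 1.15 with sh2 and 14.2 and 11.04 in Vector; its change is uncertain for the same reason.

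The hairpins differed from each other in few genes: 148 (1.16%) were higher and 49 (0.385%) lower with sh2 than with sh1. STK17B itself was 0.29 higher on the log2 scale with sh2, which did not pass (adjusted p = 0.12). Of 22 plasma cell genes 10 stood higher with sh2 and none lower, that is nearer to shControl. INSIG1 (0.40, adjusted p = 0.0021), IL6R (0.42, 0.0079) and SDC1 (0.45, 0.0035) also fell less with sh2, and F2R (-0.41, 0.038) rose less. PIGL, an enzyme of the glycosyl anchor pathway, separated the hairpins: it stood at 10.3 and 10.7 TPM in shControl, 5.19 and 5.54 with sh1, 9.27 and 8.89 with sh2 and 11.6 and 14.01 in Vector. The sh2 libraries of PIGL lay between sh1 and the controls (0.66 between hairpins, adjusted p = 0.021). RNU11, a minor-spliceosome RNA, was listed at 0 in shControl, sh1 and Vector and at 5.64 and 5.74 TPM with sh2. It is a short RNA that poly(A) selection should deplete, and the number of reads behind these values is unknown. RNU6-1, another short RNA, was at 24.8 TPM in shControl replicate 2 and at 0 in the other shControl, hairpin and Vector libraries. The difference in RNU11 is therefore uncertain. The counts between hairpins rest on the fit over all 6 groups and fell to 16 higher and 4 lower when only shControl, sh1 and sh2 were fitted; leaving out 1 library gave 15 to 81 higher and 2 to 24 lower, the fewest without sh2 replicate 1.

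In 309 genes (2.43%) the calls against the 2 controls went in opposite directions. S100A4, a calcium-binding protein of motile cells, rose by 0.53 against shControl and was at -0.69 against Vector. NPC2, a lysosomal sterol carrier, rose by 0.61 against shControl and was at -0.21 against Vector. For both genes both Vector libraries stood above the hairpins and both shControl libraries below them.

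**Figure D4:**
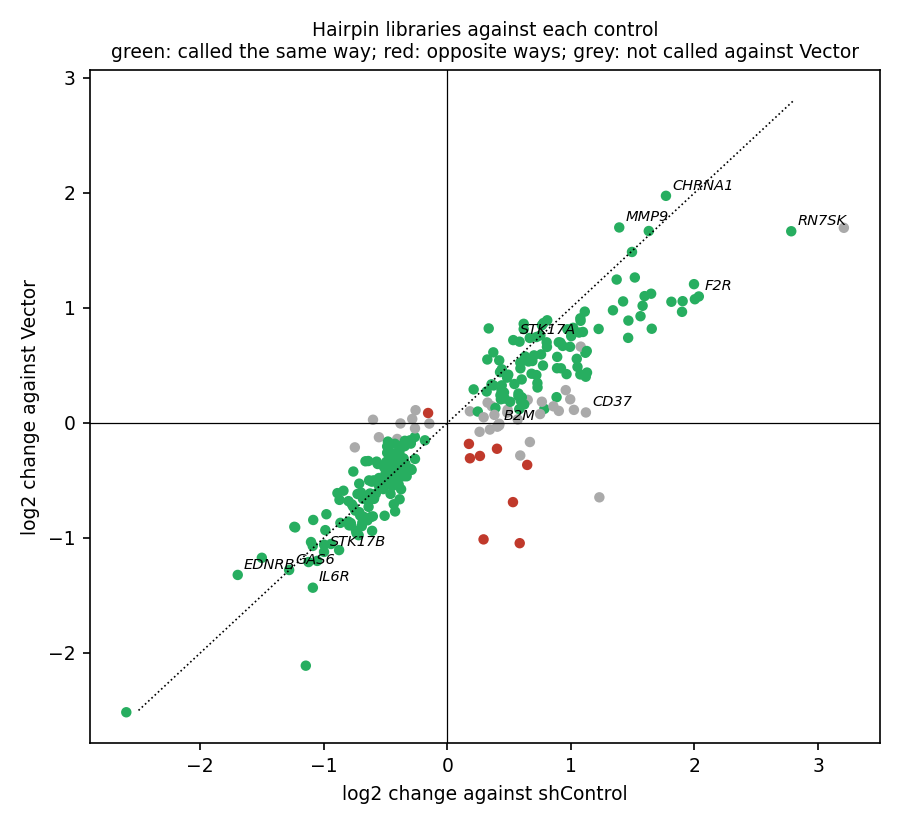
Log2 change in the mean of the hairpins against shControl (x axis) and against Vector (y axis) of 284 genes called against shControl, with a dotted line of equal change. The genes were picked by the naming rules, without those for differences between hairpins and for changes in TPM. Not all of them are named in the text. Green points were called the same way against both, red points in opposite ways and grey points not against Vector; CHRNA1 (1.77 and 1.97) and IL6R (-1.09 and -1.43) lie far from 0 on both axes, while B2M (0.40 and -0.033) does so on 1 axis.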

How the data were processed

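RNA from KMS11 cells was measured in 12 libraries, of which the 6 of shControl, sh1 and sh2 enter the comparison and the 2 of Vector serve as a second control. The authors deposited TPM per gene and library, 1 table for the series. Per the labels' protocols, poly(A) RNA was selected with oligo-dT, primed with random hexamers and sequenced as stranded DNBSEQ libraries. Tools listed in the submitters' processing notes, without roles, are RSEM 1.3.1, Bowtie2 2.3.4.3, HISAT and DESeq2 1.4.5; the build listed is GRCh38.p13. TPM keeps no read counts, so depth and counting error are unknown and no count model was used.

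Values were log2(TPM + 1); a gene was tested if it reached 1 TPM in 2 or more of the 12 libraries. The gene just inside that limit was RPL36A-HNRNPH2 (second-highest value 1.00008 TPM) and the one just outside METTL20 (0.999098). Group means of all 6 groups were fitted together (6 residual degrees of freedom) in limma 3.58.1 under R 4.3.3, using eBayes with a mean-variance trend; the contrasts were the mean of the hairpins and each hairpin against shControl, sh2 against sh1, and the same against Vector. Alternatives were 2 other pseudocounts, 2 filters, 3 rescalings, 2 forms of eBayes, a fit of 3 groups, a replicate block, Vector or both controls, and leaving out each library. Replicate numbers did not pair the libraries, so no block was used. The fit was also run on simulated data with independent noise and known changes in a small set of genes. Those data held no shift shared by the control libraries, so that run cannot show how such a shift would affect the calls.

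Gene types and positions come from GENCODE v29 on GRCh38 (22636 symbols matched to 1 gene) and RefSeq. Promoter windows are RefSeq's on GRCh38.p14; 9640 tested genes had one. Named genes are STK17B and STK17A; up to 14 higher and 14 lower protein-coding genes and up to 6 others, called in the mean and in each hairpin, with at least 5 TPM, beyond all 4 controls; up to 4 members per list; up to 6 each way between the hairpins; and the 6 largest rises and falls in TPM. Other members of lists are named for their roles, after their values were seen. Members, lists and tests were chosen with earlier results of these data known. The inhibitor and overexpression libraries entered only the fit.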

Additional observations from a re-analysis of the deposited data

Results flagged for a closer look

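Genes named above that differed between the hairpins by limma's test of the difference (adjusted p below 0.05 over all genes) are given as sh2 minus sh1 on the log2 scale with the adjusted p; both hairpins have 2 libraries. Among genes below shControl with each hairpin, the value was higher with sh2, nearer to shControl, for ADM (0.65, 0.015), ANKRD37 (0.33, 0.02), CCND2 (0.18, 0.045), CCNE1 (0.34, 0.018), CDC6 (0.24, 0.034), FGFR3 (0.13, 0.034), IDH3A (0.29, 0.033), IGLL5 (0.21, 0.039), IL6R (0.42, 0.0079), IMPDH2 (0.21, 0.02), INSIG1 (0.40, 0.0021), IRF4 (0.28, 0.011), KDELR2 (0.30, 0.0079), LDHA (0.15, 0.02), PIGL (0.66, 0.021), SDC1 (0.45, 0.0035), SLAMF7 (0.42, 0.046), SLBP (0.29, 0.0094), TNFRSF17 (0.34, 0.0011), TXNDC5 (0.32, 4.7e-04), XBP1 (0.21, 0.0093). Among genes above shControl with each hairpin, the value was lower with sh2, again nearer to shControl, for B2M (-0.15, 0.0093), F2R (-0.41, 0.038), HIST1H4H (-0.84, 0.025), HLA-DQA1 (-0.19, 0.024), PSAP (-0.13, 0.036), RN7SK (-0.56, 0.04), SMPD1 (-0.28, 0.04), SQSTM1 (-0.23, 0.0057). RNU11 was listed at 0 outside sh2 among the groups compared here and differed by 2.74 (adjusted p = 1.3e-05), but the reads behind its values are unknown and the difference is uncertain. The lower STK17B level with sh1 did not itself pass this test, and its part in these differences was not tested.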

How the results depend on the processing

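Settings were changed one at a time over 19 alternatives. Of 157 genes named with a change, 19 were not tested under at least 1 alternative, because it filters or removes them. Over the alternatives that tested a gene, 139 had the same call under each and 147 under each but Vector as the control. Calls of sh2 against sh1 (148 higher, 49 lower) moved most: 80 higher with no filter, 251 and 80 with at least 5 TPM, 16 and 4 in the fit of 3 groups, 50 higher after the median of ratios, 90 lower after quantile normalization, 15 and 6 without the trend, and 87 and 27 with the replicate block. The replicate block gave 3268 higher and 2504 lower for the mean of the hairpins, and the replicate numbers did not pair the libraries (correlations of deviations between groups -0.104 to 0.14). With Vector as the control sh2 had 2814 lower calls. Against Vector rises also became 13 (from 20) for autophagy, 12 (from 23) for interferon effectors, 8 (from 13) for MHC class I, 8 (from 14) for nucleic acid sensors, 1 (from 5) for receptor tyrosine kinases with their ligands, 6 (from 12) for sphingolipids, 3 (from 5) for iron genes, 4 (from 9) for cytokines, 3 (from 6) for Notch and 5 (from 10) for TGF-beta genes, and falls 18 (from 34) for MYC and ribosome biogenesis, 9 (from 15) for splicing factors and 9 (from 5) for nucleic acid sensors. The share of higher calls with sh1 (52.6%) was 47.2% without sh1 replicate 1. The following values changed sign with Vector: B2M -0.033, ELOVL6 -0.025, IGLL5 0.027, NPC2 -0.21, PSAP -0.040, S100A4 -0.69 and SAT1 -1.01; with the mean of both controls S100A4 was -0.079 and SAT1 -0.36. KRT18 was 0.15 without shControl replicate 1 and -0.42 without shControl replicate 2. RNU11 was 2.93 with a pseudocount of 0.1. Without shControl replicate 1, rises among ER folding genes, translation factors and proteasome subunits became 5, 5 and 3, and falls among ferroptosis defence genes 3; without shControl replicate 2, rises among translation factors became 5, and falls among G protein-coupled receptors and Wnt genes 3 and 4.

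Leaving out 1 library gave 2311 (without shControl replicate 1) to 3328 higher and 1778 to 2613 lower for the mean of the hairpins, 2236 to 2899 and 2015 to 2614 for sh1, 1853 (without sh2 replicate 2) to 2854 and 1117 (without sh2 replicate 1) to 1778 for sh2 (1137 lower without shControl replicate 2), and 15 to 81 and 2 to 24 for sh2 against sh1. The lone library of a group was then assumed to vary like the others. The cause of these shifts was not tested. TPM holds no depth, so precision at low levels is unknown.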

Other observations

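Immune ligands and cytokines rose more often than they fell against shControl. Of 12 tested cytokines and chemokines 9 rose and none fell (median 0.37), but 4 rose against both controls (median -0.0083 against Vector). IL10, an anti-inflammatory cytokine, rose by 0.81 and 0.66 against the 2 controls. Of 19 ligands and receptors of immune regulation 10 rose and 1 fell against shControl (median 0.16), led by CD86 and LGALS9, which encodes galectin 9 (0.96). Against Vector 7 of them rose and 3 fell (median -0.024), and 6 rose against both controls.

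Genes of amino acid supply fell more often than they rose. Of 29 targets of the stress factor ATF4 12 fell and 2 rose (median -0.11; -0.19 against Vector), with the glutathione-degrading CHAC1 at -0.60. Of 20 amino acid transporters 8 fell and 4 rose, and SLC7A5, which imports leucine with SLC3A2, fell by 0.44. Of 28 genes of the TCA cycle 11 fell and 7 rose, with the isocitrate dehydrogenase subunit IDH3A at -0.71. Of 37 splicing factors 15 fell and 6 rose (8 fell without shControl replicate 1, and 8 without shControl replicate 2). Several pathways had no common direction: 10 of 30 TGF-beta and BMP genes rose and 6 fell, 6 and 7 of 29 Wnt genes, 6 and 4 of 18 Notch genes, and 6 and 7 of 26 p53 targets.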
